A study of Homo sapiens with 6 samples.

Results

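The 37 genes of the mitochondrial genome were followed in 6 RNA libraries of SEM cells, a long-established human line of B-cell acute lymphoblastic leukaemia with the fusion gene KMT2A::AFF1. They were taken as every gene with a symbol starting with MT- on the mitochondrial chromosome, which gave 13 messenger RNAs, 2 ribosomal RNAs and 22 transfer RNAs out of 62703 genes in the count tables. The rule itself uses no measured value. In 3 libraries (knock-down, KD) the cells had received a pair of Dicer-substrate siRNAs over the back-splice junction of AK_8_2, a circular RNA made from a fusion gene (fusion-circRNA), and in 3 libraries (negative control, NC) a commercial non-targeting duplex of the same kind. Cells of both groups went through a reverse lipid transfection and a forward one 24 h later, so the transfection is common to KD and NC, and a single cell line stands for the disease. Values below are given in the order of replicates 1, 2 and 3 unless stated. The comparison asks whether mitochondrial RNA changed with the knock-down.

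Human mitochondrial DNA is a small circle that is transcribed in full from both strands. The long precursor of the heavy strand carries the rRNAs, most tRNAs and all but a single mRNA, while the light strand yields MT-ND6 and a minority of the tRNAs. In most places a tRNA lies between longer genes, and its excision at both ends by RNase P and RNase Z frees the neighbouring mRNAs and rRNAs. The mRNAs encode core subunits of respiratory complexes I, III and IV and of ATP synthase, the rRNAs build the mitochondrial ribosome, and leukaemic blasts, like other cells, need this ribosome to assemble the respiratory chain.

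The gene counts totalled 14750579 to 26694160 per library. Replicate 1 of both groups differed from the other 4 libraries, with 48.6% to 50.03% of the records (all entries of a table, its summary lines included) in no annotated feature against 11.3% to 17.3%. Genes with a count numbered 52077 to 53121 in replicate 1 and 30641 to 32311 in the other 4 libraries. Reads placed at several positions made up 31.5% of the records of KD replicate 3, against 4.70% to 17.3% in the other 5. Among B-cell precursor markers, PAX5 and EBF1 averaged 1073 and 289.6 CPM (counts per 1000000; for these markers over the plain total of gene counts, elsewhere over the scaled library size), while DNTT and BLNK averaged 0.46 and 1.55 CPM. BLNK had 3.69 and 4.61 CPM in replicate 1 of KD and NC, and 0.11 to 0.38 CPM in the other 4 libraries. For DNTT these values were 0.67 and 1.90 CPM, and 0 to 0.14 CPM. Of 5 T-cell markers, TRAC alone was above 10 CPM. The library kit depletes globin transcripts, so the globin genes say nothing of erythroid cells. Whether ribosomal RNA was also depleted is not given in the sources used here.

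The sequences below show tRNA genes with the most counts and with none, and the places where mRNA genes overlap. They are read 5′ to 3′ on the gene's own strand from the GENCODE 29 transcripts (GRCh38, chromosome M). The first 4 are the tRNA genes with the most counts: MT-TP for proline (chrM:15956-16023, minus strand), MT-TT for threonine (chrM:15888-15953, plus strand), MT-TQ for glutamine (chrM:4329-4400, minus strand) and MT-TS1 for a serine tRNA (chrM:7446-7514, minus strand). The next 2, MT-TV for valine (chrM:1602-1670, plus strand) and MT-TL1 for a leucine tRNA (chrM:3230-3304, plus strand), sit at the ends of the rRNAs and had no count in any library. The last 2 show, in capitals, the bases shared by MT-ATP8 and MT-ATP6 (46 bases, in chrM:8507-8592, plus strand) and by MT-ND4L and MT-ND4 (7 bases, in chrM:10740-10786, plus strand), each with 20 bases on either side.
MT-TP: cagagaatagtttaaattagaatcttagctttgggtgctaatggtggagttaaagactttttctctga
MT-TT: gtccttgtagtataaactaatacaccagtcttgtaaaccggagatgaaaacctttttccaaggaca
MT-TQ: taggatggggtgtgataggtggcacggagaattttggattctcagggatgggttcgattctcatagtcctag
MT-TS1: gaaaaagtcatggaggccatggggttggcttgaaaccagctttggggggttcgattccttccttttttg
MT-TV: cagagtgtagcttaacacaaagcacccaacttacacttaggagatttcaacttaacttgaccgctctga
MT-TL1: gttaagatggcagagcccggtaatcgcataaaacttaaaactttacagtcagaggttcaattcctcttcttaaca
MT-ATP8/MT-ATP6: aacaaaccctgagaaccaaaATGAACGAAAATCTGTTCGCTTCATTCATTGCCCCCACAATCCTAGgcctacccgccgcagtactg
MT-ND4L/MT-ND4: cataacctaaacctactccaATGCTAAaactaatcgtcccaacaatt

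Mitochondrial RNA made up 3.70% to 10.7% of the gene counts, and the share differed more between libraries than between groups. The mRNAs took 5.49%, 2.90% and 3.94% of the gene counts (KD) and 4.55%, 4.43% and 2.36% (NC). KD was thus higher than NC in replicates 1 and 3, by 1.21 and 1.67 times, and lower in replicate 2, at 0.655 times, and the groups overlapped. For replicates 2 and 3 these signs rest on the match by number. Matched across numbers, KD replicate 2 was above NC replicate 3, and KD replicate 3 was below NC replicate 2. The rRNAs took 0.293%, 0.819% and 6.79% (KD) and 0.340%, 1.21% and 1.34% (NC). KD replicate 3 stood alone at the top, and in replicates 1 and 2 KD was the lower library (0.861 and 0.675 times NC). The tRNAs together held 0.00828%, 0.00366% and 0.00363% of the gene counts (KD) and 0.00771%, 0.00618% and 0.00284% (NC). That is 667 to 1494 counts per library for all 22 tRNA genes. In such bulk libraries, fewer cells with an RNA and less of it per cell cannot be told apart.

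**Figure D1:**
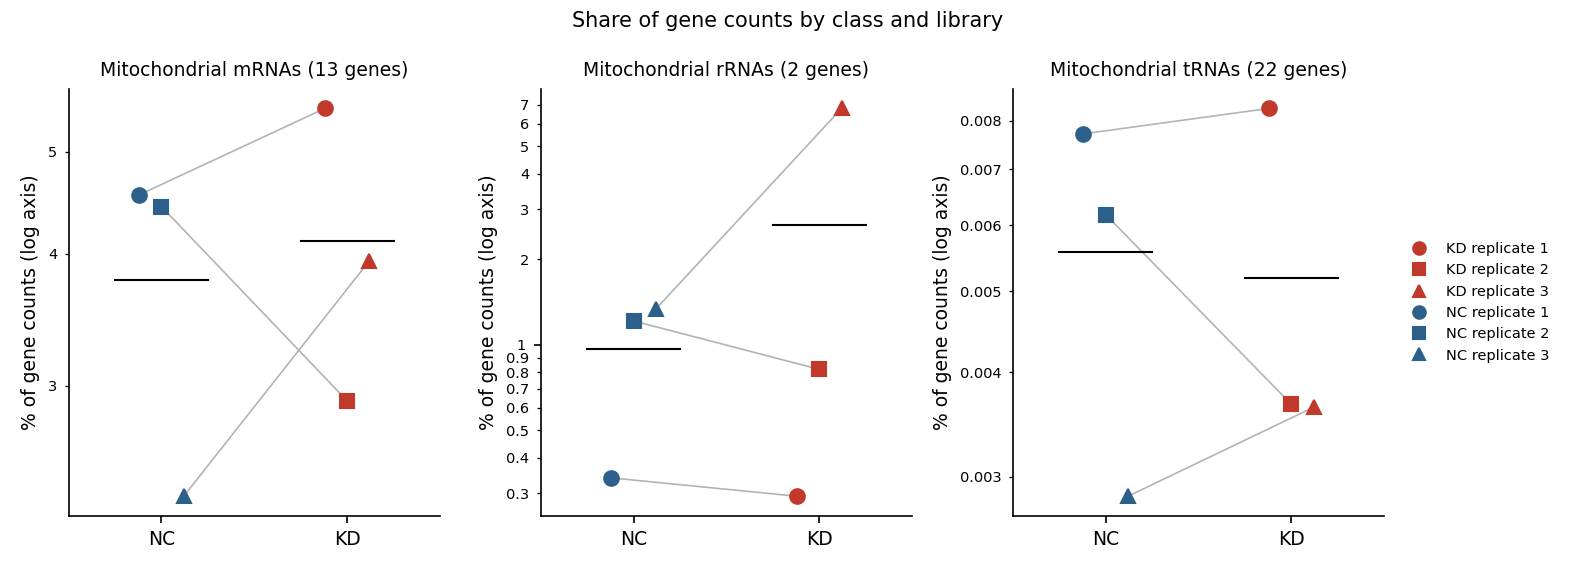
Share of gene counts (%, log axis) held by the mitochondrial mRNAs, rRNAs and tRNAs in each library. Grey lines join libraries with the same replicate number and black bars are group means; the lines of the mRNAs and tRNAs run up, down and up for replicates 1, 2 and 3, and the rRNA share of KD replicate 3 (6.79%) lies above the other 5 libraries (0.293% to 1.34%).

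When all 6 libraries were fitted, none of the mitochondrial genes passed the test of KD against NC. Of the 37 genes, 25 passed the filter on low counts: all 13 mRNAs, both rRNAs and 10 of 22 tRNAs. After Benjamini-Hochberg adjustment over all 16929 tested genes, the quasi-likelihood test of edgeR called 0 of them at an adjusted p under 0.05, with 0 at an unadjusted p under 0.05, and DESeq2 also called 0 with 0 at an unadjusted p under 0.05. Over all genes the edgeR test called 0% (58 genes had an unadjusted p under 0.05) and DESeq2 called 1 gene (0.00591%). With replicate number as a block, edgeR called 0.171% of all genes (0.142% higher and 0.0295% lower in KD) and again 0 of the 25. The fit by group counts differences between replicate numbers as error. Its biological coefficient of variation (relative spread between libraries) was 0.374, against 0.0684 with the block, where 838 genes had an unadjusted edgeR p under 0.05. Its lack of calls therefore does not show a lack of change. The block did not narrow the mRNA estimates, whose standard errors were 0.29 to 0.49 with it and 0.24 to 0.37 without it. The groups did not overlap in CPM for 0 of the 25, while among all tested genes 1.72% had all KD libraries above and 1.67% all KD libraries below the NC libraries. Without pair 2 (replicate 2 of both groups), the blocked fit called 0.397% of the 29982 genes tested there and 8 of the 13 mRNAs, all higher in KD. These were MT-CO1, MT-CO2, MT-ATP8, MT-CO3, MT-ND4L, MT-ND4, MT-ND5 and MT-CYB, with log2 fold changes of 0.32 (MT-ND4L) to 0.60 (MT-CO2). Without pair 3 it called MT-RNR2, lower in KD (log2 fold change -0.45, edgeR adjusted p 1.11e-08), and 0.244% of the 29966 genes tested there. Without pair 1 it called 0 mitochondrial genes and 0.0306% of the 16344 genes tested there. These shares rest on unlike sets of tested genes. These fits of 4 libraries leave 1 residual degree of freedom per gene and were added after seeing the data, and which genes they call depends on the pair left out.

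The mRNAs of the respiratory complexes varied together from library to library. Among the 13, the log2 fold change of KD over NC (the estimate of the fit by group) ran from -0.15 for MT-ND6 to 0.20 for MT-ND1, with a median of 0.16 against -0.00 over all tested genes. Standard errors were 0.24 to 0.37, so each estimate lay within its error of 0, and the widest 95% interval reached 1.04, for MT-ND2. All 13 were higher in KD in replicate 1, lower in replicate 2 and higher in replicate 3, an order of signs shown by 13.5% of all tested genes. Their median differences of log2 CPM were 0.29, -0.64 and 0.86 in replicates 1, 2 and 3, while those of all tested genes were 0.00, -0.00 and 0.01. Because the 13 come from shared precursors and shared libraries, they are not separate observations of the treatment.

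**Figure D2:**
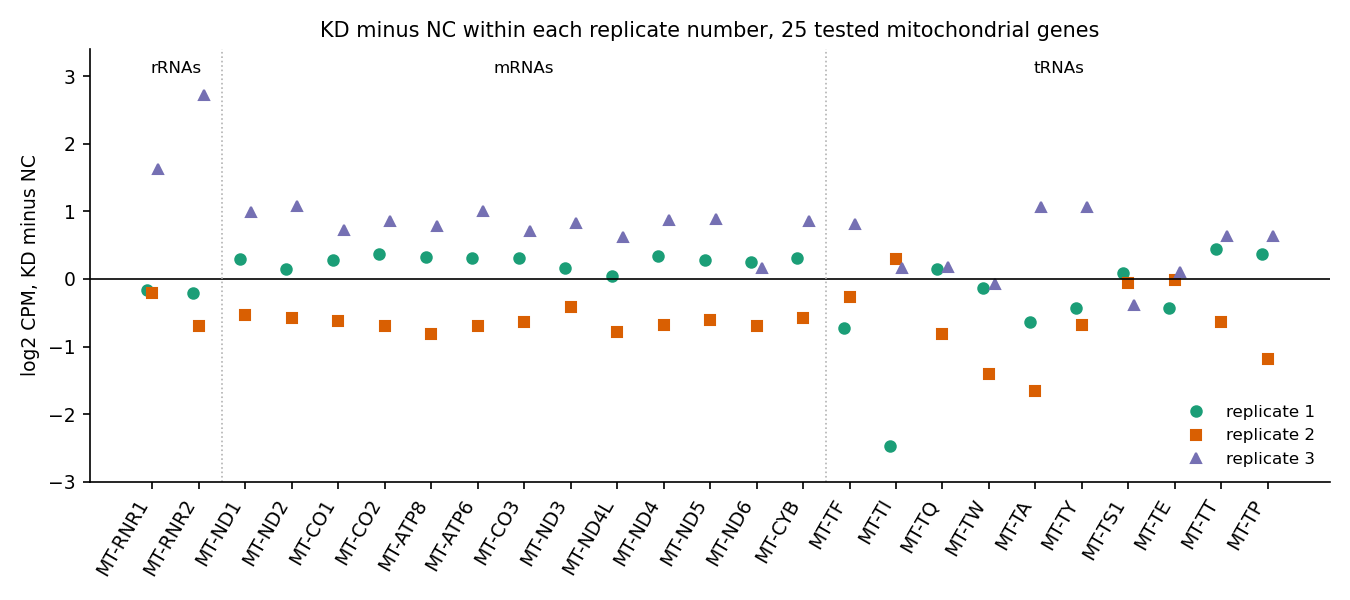
Difference of log2 CPM, KD minus NC, within each replicate number for the 25 tested mitochondrial genes (2 rRNAs, 13 mRNAs, 10 tRNAs, each class in map order). The mRNAs lie above 0 in replicates 1 and 3 and below 0 in replicate 2; the rRNAs lie below 0 in replicates 1 and 2 and far above it in replicate 3.

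Complex I, which takes electrons from NADH, has 7 of its subunits encoded here. MT-ND1 (ENSG00000198888.2, chrM:3307-4262), the first mRNA after the rRNAs, had 6214, 4370 and 5983 CPM (KD) and 5070, 6306 and 3004 CPM (NC). For MT-ND2 (chrM:4470-5511) the values were 4840, 2508 and 3797 CPM (KD) and 4391, 3742 and 1802 CPM (NC). Replicate 1 of both groups was above the other 4 libraries for MT-ND2 and for no other mRNA. MT-ND5 (chrM:12337-14148), the longest of the set, stood at 7779, 4535 and 6301 CPM (KD) and 6375, 6876 and 3397 CPM (NC). MT-ND4 (chrM:10760-12137) had 6703, 3596 and 5067 CPM (KD) and 5295, 5743 and 2754 CPM (NC). In all of these KD replicate 2 was the lowest KD library and NC replicate 3 the lowest NC library. The short MT-ND3 (chrM:10059-10404) had 1157, 760.2 and 1149 CPM (KD) and 1030, 1010 and 646 CPM (NC). MT-ND4L (chrM:10470-10766), which runs into MT-ND4 by the 7 bases printed above, had 391, 323 and 519 CPM (KD) and 379, 553 and 337 CPM (NC). Its log2 fold change was -0.04, and with MT-ND6 it made up the 2 mRNAs below 0.

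MT-ND6 (ENSG00000198695.2, chrM:14149-14673, minus strand) is the complex I subunit of the opposite strand. Its gene, like the minus-strand tRNA genes, is also crossed by the heavy-strand precursor, and with the strand setting of the counting unknown, reads of both strands cannot be told apart. It had 263, 230.0 and 225 CPM (KD) and 222, 373 and 201 CPM (NC), the lowest level of the 13 in every library. The strand shows in its letters: G made up 35.6% and C 7.05% of the gene, against 6.28% to 16.2% G and 29.5% to 36.0% C in the other 12. Per kilobase of gene, MT-ND6 stood at 11.2%, 17.8% and 11.8% of the median of the other 12 mRNAs (KD) and at 11.5%, 18.9% and 20.4% (NC). The low values were those of replicate 1 in both groups and of KD replicate 3, and the groups overlapped.

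Complexes III and IV pass electrons on to oxygen, and ATP synthase uses the gradient they build. MT-CYB (chrM:14747-15887), the cytochrome b of complex III, had 3333, 2072 and 2880 CPM (KD) and 2688, 3083 and 1585 CPM (NC). MT-CO1 (chrM:5904-7445), the catalytic subunit of cytochrome c oxidase, had 7726, 4481 and 6142 CPM (KD) and 6333, 6861 and 3720 CPM (NC). MT-CO2 (chrM:7586-8269), which receives the electrons from cytochrome c, had 4893, 2670 and 4139 CPM (KD) and 3781, 4309 and 2272 CPM (NC). For these 3, KD replicate 1 and NC replicate 2 were the highest libraries of their groups. MT-CO3 (chrM:9207-9990) had 4043, 2725 and 3701 CPM (KD) and 3251, 4238 and 2259 CPM (NC). The membrane subunits of ATP synthase were read at 2778, 1570 and 2480 CPM (KD) and 2229, 2549 and 1237 CPM (NC) for MT-ATP6 (chrM:8527-9207). MT-ATP8 (chrM:8366-8572), in which 46 of 207 bases also belong to MT-ATP6, had 606, 360.3 and 659 CPM (KD) and 484, 632 and 382 CPM (NC). The largest log2 fold change among these 6 was 0.18, and none of the intervals left out 0.

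Relative to each other the mRNAs were more constant than their total, MT-ND6 and MT-ND4L least so. Each mRNA's part of the 13-mRNA counts varied least over the 6 libraries for MT-CYB (1.06-fold) and MT-ND5 (1.07-fold). It varied most for MT-ND6 (1.64-fold) and MT-ND4L (1.85-fold). By CPM MT-ND4L ranged 1.71-fold, less than its part did. MT-CO1 and MT-ND5 were the largest parts, at 14.3% to 15.8% and 14.4% to 15.4%. MT-ND4L and MT-ND6, the smallest, were a lower part in KD in all 3 pairs: log2 ratios were -0.24, -0.16 and -0.25 for MT-ND4L and -0.04, -0.08 and -0.70 for MT-ND6. MT-ND1 was a higher part in all 3 (0.00, 0.09 and 0.13), and the other 10 changed sign between pairs. By CPM, a measure other than these parts, 13.3% of all tested genes were higher and 12.3% lower in KD in all 3 pairs. A shared sign is therefore common and is not read as a change of these mRNAs. For each of the 13 the parts of the KD and NC libraries overlapped.

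Per kilobase of gene, some steps in the order of the mRNA levels held in all 6 libraries and others did not. The mean over 6 libraries was highest for MT-ND1 (5395 CPM per kb) and MT-CO2 (5376 CPM per kb), which changed places in 3 of 6 libraries. MT-CO3 (4298 CPM per kb), MT-CO1 (3812 CPM per kb) and MT-ND4 (3527 CPM per kb) came next by their means and kept this order among themselves in all 6, but in NC replicate 1 MT-ND2 lay above all 3. MT-ND4, MT-ND2, MT-ND5, MT-ATP6, MT-ND3, MT-ATP8 and MT-CYB came next to each other, from 3527 to 2285 CPM per kb, and each neighbouring pair was in this order in 3 to 5 of the 6 libraries. MT-ND4L (1405 CPM per kb) and MT-ND6 (481 CPM per kb) were the last in all 6. Lengths are those of the whole gene, so bases that overlap another gene count in them. MT-ND4L shares 7 bases with MT-ND4, and MT-ATP8 shares 46 with MT-ATP6. Records ambiguous between genes, 2.58% to 5.94% of all, were set aside, and their part in the values of these short genes was not tested. The order is one of counts per gene and is not given as levels of separate mRNA molecules. Of the 13 genes, 6 (MT-ND1, MT-ND2, MT-CO3, MT-ND3, MT-ND4 and MT-CYB) end without a complete stop codon, which in these mRNAs is known to be made by the poly(A) tail.

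**Figure D3:**
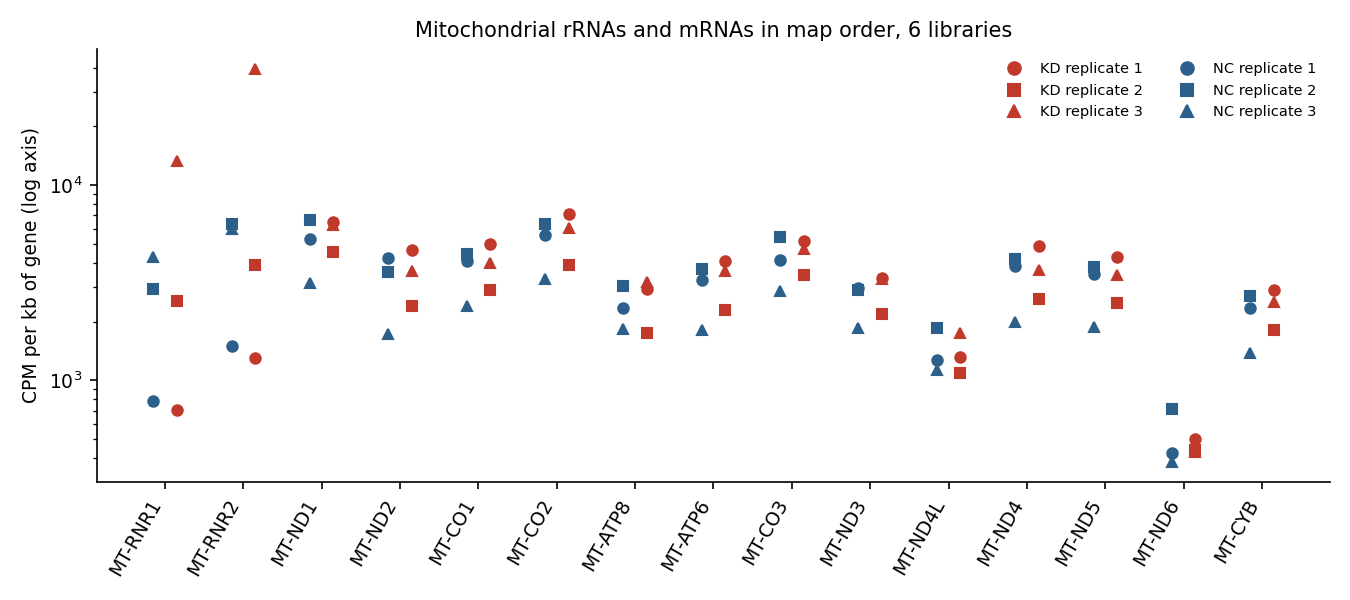
CPM per kilobase of gene (log axis) of the 2 rRNAs and 13 mRNAs in map order; red is KD, blue is NC and the marker shape is the replicate number. The rRNAs spread widely, with KD replicate 3 highest and replicate 1 of both groups lowest, whereas no mRNA ranges more than 2.69-fold over the libraries, and MT-ND6 lies below all other mRNAs.

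The rRNAs showed the widest spread of the 3 classes, and KD replicate 3 decided their group difference. MT-RNR2 (ENSG00000210082.2, chrM:1671-3229), the rRNA of the large mitochondrial subunit, had 2029, 6074 and 61450 CPM (KD) and 2351, 9832 and 9282 CPM (NC). MT-RNR1 (ENSG00000211459.2, chrM:648-1601), that of the small subunit, had 675, 2446 and 12665 CPM (KD) and 752, 2821 and 4080 CPM (NC). KD replicate 3 was 6.25 times the next highest library for MT-RNR2 and 3.10 times for MT-RNR1, and replicate 1 of both groups lay below the other 4. KD replicate 2 stood between replicate 1 and NC replicates 2 and 3, so the groups overlapped. Group means were 23184 ± 33201 CPM in KD and 7155 ± 4169 in NC for MT-RNR2 (SD, n = 3 each). The log2 fold changes were 1.70 (95% interval -1.13 to 4.52) for MT-RNR2 and 1.04 (-1.40 to 3.49) for MT-RNR1. With the replicate number as a block they were 0.52 and 0.41. Without KD replicate 3 they were -0.85 and -0.74, the opposite direction. From the lowest to the highest library MT-RNR2 ranged 30.3-fold, and 0.455% of all tested genes ranged as widely or more; the mRNAs ranged 1.71-fold to 2.69-fold.

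The excess in KD replicate 3 was uneven between the rRNAs and was not matched by the mRNAs. Counts of MT-RNR2 per count of MT-RNR1 came to 3.01, 2.48 and 4.85 (KD) and 3.13, 3.49 and 2.27 (NC). Both rRNAs are cut from the same precursor. The rRNA counts per mRNA count came to 0.0533, 0.282 and 1.72 (KD) and 0.0747, 0.273 and 0.566 (NC). KD replicate 3 was the highest library and replicate 1 of both groups the lowest in this ratio. The share of records aligned to several places had the same extremes: 4.70%, 12.7% and 31.5% (KD) and 4.90%, 13.2% and 17.3% (NC). Its part in the rRNA difference was not tested, and with any rRNA depletion unknown the rRNA values are not given as levels in the cells. The 52 nuclear ribosomal RNA genes in the tables held at most 0.00120% of the gene counts in any library, 166 counts in KD replicate 3, so the counted reads give no measure of cytoplasmic rRNA.

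**Figure D4:**
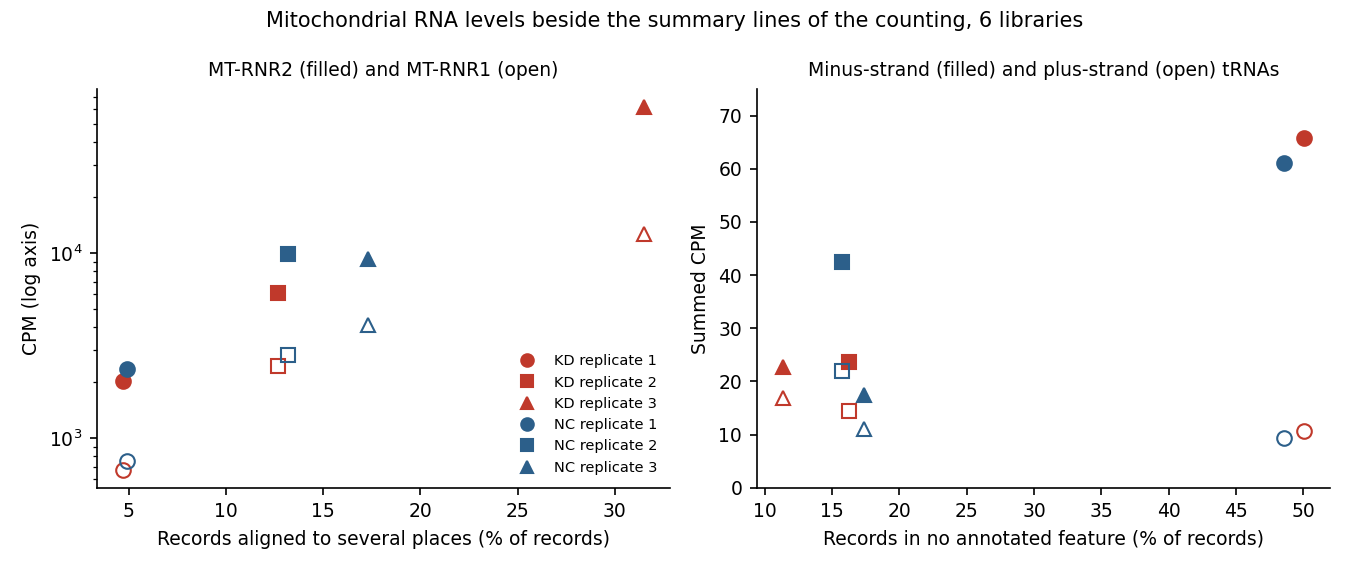
Left, CPM (log axis) of MT-RNR2 (filled) and MT-RNR1 (open) against the percentage of records aligned to several places; right, summed CPM of the minus-strand (filled) and plus-strand (open) tRNAs against the percentage of records in no annotated feature, 1 point per library. KD replicate 3 is the rightmost and highest library on the left, and replicate 1 of both groups lies apart at 48.6% to 50.03% on the right, with the highest minus-strand sums.

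The tRNA genes divided into those with counts and those never counted. Of 22 tRNA genes, 12 had a count in at least 1 library and 10 had 0 in all 6: MT-TV, MT-TL1, MT-TN, MT-TC, MT-TK, MT-TG, MT-TR, MT-TH, MT-TS2 and MT-TL2. A count of 0 allows up to 3 counts, which is at most 0.19 CPM in a library, and covers counting error only. Position on the map separated the sets. Each of the 10 had a gene of its own strand within 31 nucleotides on both sides, while each of the 12 had at least 1 side free of such a gene for 70 nucleotides or more. Taken on either strand, the distance did not separate them, since 10 of the 12 counted tRNAs also had a neighbour within 50 nucleotides on both sides. This rule and its limit of 50 were chosen after the counts were seen. How the counting treated strand and reads that span several genes is not given in the sources used here, and 2.58% to 5.94% of the records were set aside as ambiguous between genes. A tRNA gene spans 59 to 75 bases, and short, structured RNAs are known to be poorly recovered by standard total RNA libraries. These counts are therefore not given as levels of mature tRNA.

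**Figure D5:**
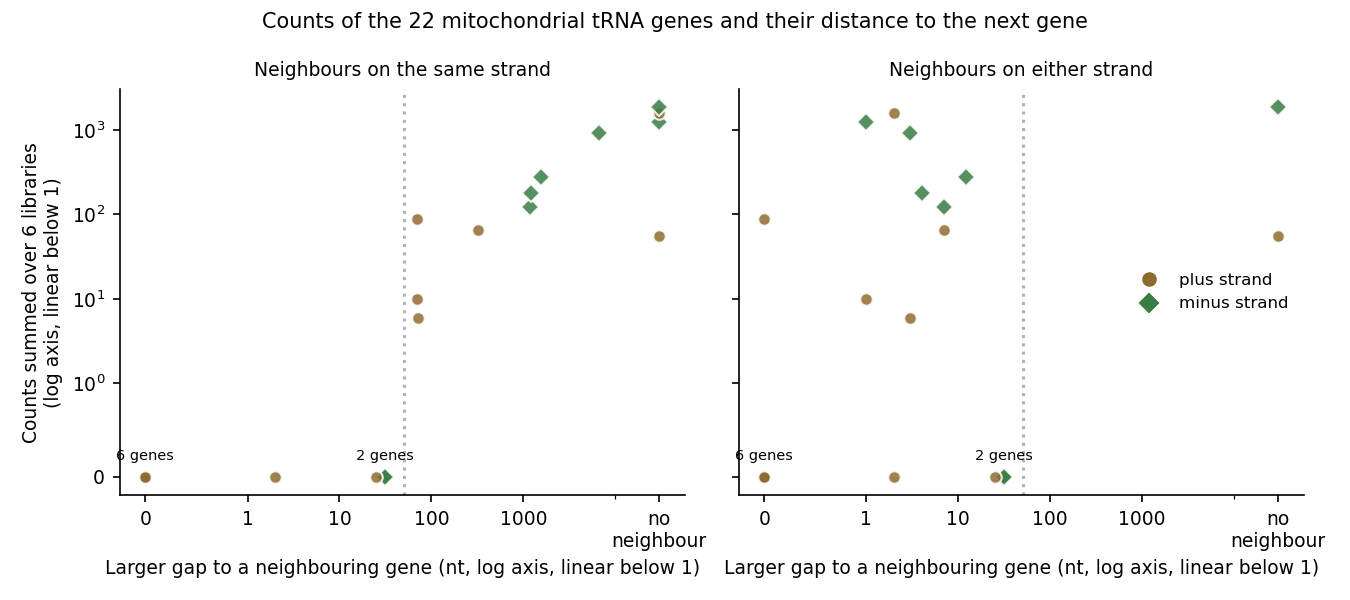
Counts of each tRNA gene summed over the 6 libraries (log axis, linear below 1) against the larger of its gaps to the next gene on either side, with neighbours of the same strand (left) or of either strand (right); the dotted line marks 50 nucleotides. On the left all 10 uncounted genes lie below the line and all 12 counted genes above it, and on the right counted and uncounted genes mix below the line.

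Among the counted tRNAs, MT-TP and MT-TT, the neighbours at the end of the map, had the highest mean CPM over the 6 libraries. MT-TP had 22.01, 9.63 and 12.5 CPM (KD) and 17.02, 22.003 and 8.06 CPM (NC). MT-TT, on the other strand, had 9.33, 12.8 and 15.1 CPM (KD) and 6.81, 20.02 and 9.64 CPM (NC). MT-TP was above MT-TT in KD replicate 1 and NC replicates 1 and 2 and below it in the rest. MT-TQ had 21.1, 5.65 and 4.54 CPM (KD) and 19.1, 10.01 and 4.01 CPM (NC). MT-TS1 had 15.03, 5.49 and 2.94 CPM (KD) and 14.2, 5.74 and 3.88 CPM (NC). For both of these, replicate 1 of each group lay above all other libraries, and there both were above MT-TT; in NC replicate 1 MT-TQ was also above MT-TP. MT-TY, for tyrosine, had 2.68, 1.79 and 1.80 CPM (KD) and 3.65, 2.93 and 0.81 CPM (NC). Of the tested tRNAs 9 had an estimate below 0 and 1 above it, as against 8581 below 0 among all 16929 tested genes. Their estimates ran from -0.64 for MT-TA to 0.02 for MT-TT, with a median of -0.17, and none passed the test. MT-TW was the only tested mitochondrial gene with a lower value in KD in all 3 pairs (-0.13, -1.41 and -0.07), a pattern of 12.3% of all tested genes; it stood at 0.23 to 0.80 CPM. MT-TM and MT-TD, with 10 and 6 counts over all libraries, did not pass the filter.

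The summed CPM over minus-strand tRNA genes was highest in replicate 1 of both groups, and that over plus-strand tRNA genes was not. The 8 minus-strand tRNA genes, 6 of them with counts, summed to 65.7, 23.7 and 22.7 CPM (KD) and 61.1, 42.4 and 17.4 CPM (NC). The 14 plus-strand genes, again 6 with counts, summed to 10.7, 14.5 and 17.0 CPM (KD) and 9.34, 22.05 and 11.1 CPM (NC). Their ratio was 6.16 and 6.54 in replicate 1 and 1.34 to 1.92 in the other 4 libraries. MT-TQ, MT-TA, MT-TS1 and MT-TE, all of the minus strand, had both replicate 1 libraries above the other 4, and MT-TT had both below. Replicate 1 of both groups also had 48.6% to 50.03% of its records in no annotated feature, and the part of this in the strand ratio was not tested. KD and NC did not separate in either sum.

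No nuclear gene of mitochondrial gene expression passed the test. The list held 93 genes for transcription, RNA processing, stability, rRNA and tRNA modification, aminoacylation and mitochondrial DNA maintenance, 92 of which were tested. edgeR called 0 in either direction, with 0 at an unadjusted p under 0.05 (DESeq2 also 0 and 0), and with the replicate block again 0, with 2 of 92 at an unadjusted p under 0.05 against 838 of all 16929 tested genes. The median log2 fold change was 0.00, against -0.00 over all tested genes, with 48 estimates above 0 and 44 below. By role, the medians ran from -0.05 over 9 rRNA modification genes to 0.02 over 23 aminoacyl-tRNA synthetase genes. The smallest p belonged to SLIRP (ENSG00000119705.10, chr14:77708071-77761104), which with LRPPRC binds and stabilises mitochondrial mRNAs. SLIRP had 131, 150.3 and 162 CPM (KD) and 112, 128 and 141 CPM (NC). The groups overlapped, but SLIRP was higher in KD in all 3 pairs, by 0.23, 0.23 and 0.19 on the log2 scale. Of all tested genes, 13.3% were likewise higher in KD in all 3 pairs. The log2 fold change of SLIRP, 0.22, did not pass (SE 0.05 with the block, edgeR adjusted p 0.135 with it and 1.00 without it). RRM2B, a subunit of the ribonucleotide reductase that supplies mitochondrial DNA synthesis in resting cells, was next, at 31.2, 26.5 and 22.4 CPM (KD) and 33.5, 29.4 and 27.9 CPM (NC) (log2 fold change -0.18, edgeR adjusted p 0.895 with the block and 1.00 without). Chosen for their roles after the values were seen, the RNA polymerase POLRMT, its activator TFAM and LRPPRC had log2 fold changes of 0.00, -0.02 and -0.06. Their blocked 95% intervals ran from -0.11 to 0.11, from -0.13 to 0.08 and from -0.16 to 0.03.

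Nuclear copies of mitochondrial genes, remnants of mitochondrial DNA inserted in the chromosomes, took few reads. Of 404 genes named as such copies, 314 had a count and 14 passed the filter, and together the copies held 0.0418% to 0.0701% of the gene counts. The most abundant was MTATP6P1 (chr1:633696-634376), a copy of MT-ATP6, at 380.1, 299 and 482 CPM (KD) and 327, 422 and 246 CPM (NC). Its differences within pairs 1, 2 and 3 were 0.22, -0.49 and 0.97, and those of MT-ATP6 were 0.32, -0.70 and 1.00. Of the 14 tested copies 5 were higher, lower and higher in KD in pairs 1, 2 and 3, an order shown by 13.5% of all tested genes. An estimate below 0 was found for 12 of them and for 8581 of all 16929 tested genes. In 1 copy all KD libraries lay below the NC libraries, as in 1.67% of all tested genes. With the block, 1 copy had an unadjusted edgeR p under 0.05, against 838 of all tested genes. The neighbouring MTND2P28 (chr1:629640-630683) had 165, 103 and 154 CPM (KD) and 165, 168 and 98.2 CPM (NC), and MTCO1P12 (chr1:631074-632616) had 20.2, 14.9 and 24.02 CPM (KD) and 21.6, 22.99 and 21.2 CPM (NC). Reads of such copies and of the mitochondrial genes can be placed on each other where the sequences are near-identical, so both sets of counts are uncertain to that extent. None of the 14 passed the test with or without the block.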

How the data were processed

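Total RNA of 6 SEM libraries (3 KD, 3 NC, grouped and numbered by their titles) was sequenced. The deposited values are whole-number read counts per Ensembl gene with 5 summary lines, 1 file per library. Per the submitters' processing notes, the build is hg38 and the named tools are STAR 2.7.10a, HTSeq 0.11.1, FastQC 0.11.8 and DESeq2, with no role given for any. The sources used here do not give the annotation release or the strand setting. The labels name a library kit that depletes globin transcripts. The summary lines entered neither the library sizes nor the tests. Of 62703 gene IDs, 62686 were in the gene name table; positions, gene types and sequences come from GENCODE 29 (GRCh38).

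The main test was the robust quasi-likelihood F test of edgeR 4.0.16 (R 4.3.3), with group as the only term, after TMM scaling and the default expression filter on the groups, Benjamini-Hochberg adjusted p under 0.05 over 16929 genes, first tested on simulated data. CPM uses TMM-scaled library sizes, except for the cell type markers, where it uses the plain total of gene counts; differences within a pair use log2 CPM with a prior count of 2. Alternatives were a replicate block, DESeq2 1.42.0, RLE factors, MT- genes left out of the scaling, no filter and each library left out; fits without a pair were added after seeing the data. Totals of 14750579 to 26694160 counts set the precision for low genes. No library repeated another of its group (chi-square of the counts 20.2 to 82.0 per degree of freedom). The labels call the replicates independent without naming separate cultures, so p-values measure the spread between these libraries.

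Same-numbered libraries deviated together from their group means (correlations 0.89, 0.62 and 0.60 across genes for replicates 1, 2 and 3, against a limit of 0.1), so the numbers were treated as pairs in the blocked fit, although the labels state no shared day or culture. KD replicate 2 also correlated with NC replicate 3, at 0.59, and KD replicate 3 with NC replicate 2, at 0.55. For replicates 2 and 3 the correlations thus barely favoured the match by number over the match across numbers. The signs by pair and the blocked results rest on the match by number. Values in every library are given for the rRNAs, the mRNAs, the 5 tRNAs with the highest mean CPM and, from the list of nuclear genes, the 2 with the smallest p, and for the 3 most abundant nuclear copies. The members and lists were chosen with earlier results of these data known.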

Additional observations from a re-analysis of the deposited data

Results flagged for a closer look

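The summary line for records aligned to several places, which enters no comparison, was above all control libraries in KD replicate 3: it held 31.5% of the records there, against 4.90% to 17.3% in NC and 4.70% and 12.7% in KD replicates 1 and 2. The test for an extreme library within a group needs at least 4 libraries and was not run.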

How the results depend on the processing

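No mitochondrial gene was called with RLE factors, with MT- genes left out of the scaling, without the filter on low counts, with DESeq2 or with any library left out; these scalings moved the median over all genes by under 0.01. Under the replicate block, calls over all genes numbered 29 in place of 0 (29 also with MT- genes left out of the scaling) and with DESeq2 1. The block with MT- genes left out of the scaling and the blocked fits without a pair were chosen after seeing the data. All-gene calls were 5 of 16344 tested genes without pair 1, 119 of 29982 without pair 2 and 73 of 29966 without pair 3. Mitochondrial calls in these fits were 0, 8 and 1. The cause was not tested. The block changed no other call.

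The log2 ratio of the rRNA share (1.45) was -0.39 in the paired fit without pair 3 and ran from -0.79 (without KD replicate 3) to 1.98 (without KD replicate 1) with 1 library left out. In the blocked fits, estimates whose sign differed from the fit of all libraries were 0.26 for MT-TI, 0.062 for MT-TY, -0.016 for MT-ATP8, 0.035 for MT-TE, -0.043 for MT-TT without pair 1; 0.044 for MT-TF, 0.14 for MT-TQ, 0.21 for MT-TY, 0.32 for MT-ND4L, 0.19 for MT-ND6, 0.47 for MT-TP without pair 2; and -0.18 for MT-RNR1, -0.45 for MT-RNR2, -0.11 for MT-ND1, -0.21 for MT-ND2, -0.16 for MT-CO1, 0.026 for MT-TS1, -0.15 for MT-CO2, -0.24 for MT-ATP8, -0.19 for MT-ATP6, -0.16 for MT-CO3, -0.12 for MT-ND3, -0.16 for MT-ND4, -0.15 for MT-ND5, -0.13 for MT-CYB, -0.23 for MT-TT without pair 3. With each library left out in turn, estimates ran from -0.74 to 1.60 for MT-RNR1, -0.85 to 2.24 for MT-RNR2; from -0.028 to 0.48 for MT-ND1, -0.11 to 0.42 for MT-ND2, -0.098 to 0.30 for MT-CO1, -0.043 to 0.39 for MT-CO2, -0.10 to 0.34 for MT-ATP8, -0.058 to 0.42 for MT-ATP6, -0.092 to 0.36 for MT-CO3, 0.031 to 0.34 for MT-ND3, -0.29 to 0.22 for MT-ND4L, -0.0998 to 0.37 for MT-ND4, -0.082 to 0.37 for MT-ND5, -0.31 to 0.19 for MT-ND6, -0.0504 to 0.39 for MT-CYB; and from -0.52 to 0.46 for MT-TF, -0.72 to 0.27 for MT-TI, -1.09 to 0.56 for MT-TQ, -1.12 to -0.31 for MT-TW, -2.01 to 0.79 for MT-TA, -0.63 to 0.16 for MT-TY, -0.89 to 0.69 for MT-TS1, -1.35 to 1.10 for MT-TE, -0.26 to 0.60 for MT-TT, -0.50 to 0.25 for MT-TP. Without NC replicate 2 or 3 or KD replicate 2 or 3, more low-count genes entered and the all-gene median shifted by up to 0.11. Genes with a mean under 5 CPM, which include 6 of the 10 tested tRNAs, are limited by depth.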
